A study of Mus musculus with 6 samples.

Results

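The receptors for interleukin-12 (IL-12), interleukin-18 (IL-18) and interferon-gamma and their proximal signalling proteins were examined as 9 genes: Il12rb1, Il12rb2, Tyk2, Stat4, Il18r1, Il18rap, Myd88, Ifngr1 and Ifngr2. They were found by their gene symbols in the platform annotation. Each of the 9 genes had 1 probe set, and they are 9 of the 19938 genes measured. No gene of the 9 separated the genotypes. In the limma fit 0 of 9 passed the test, against 0.0201% of all genes (0.015% higher and 0.00502% lower in knockout). Knockout and control arrays overlapped for each of the 9, where 8.33% of all genes did not overlap. The differences lay between -0.25 (Il12rb2) and 0.29 (Myd88) on the log2 scale. Transcripts of 8 of the 9 genes lay above the array's background level, and that of Ifngr2 did not.

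Expression was measured on 6 Affymetrix arrays of natural killer (NK) cells from the spleens of C57Bl/6 mice aged 8 to 12 weeks. The gate took YFP+ cells with CD27 and NK1.1 and without CD3, directly after harvest, and no stimulation is named. The genotype labelled 15a/16-1FKO (the knockout here) and the genotype labelled Ctrl (the control) had 3 arrays each, and both were sorted on YFP. The sources used here do not give what drives YFP and the deletion. The design text calls the arrays technical replicates, so a p-value here covers only the array-to-array spread. The sex-linked transcripts given below differed between arrays of 1 genotype, which 1 RNA per genotype would not give, and whether the spread is between animals or pools is not stated. The comparison addresses the effect of removing Mir15a and Mir16-1 on the transcripts of CD27-positive NK cells. In such bulk RNA, fewer expressing cells and less RNA per cell cannot be told apart.

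IL-12 is made by dendritic cells and macrophages and binds a receptor of IL-12Rβ1 and IL-12Rβ2 on NK cells. The kinase TYK2 sits on IL-12Rβ1 and JAK2 on IL-12Rβ2, and together they phosphorylate STAT4, which drives transcription of interferon-gamma. IL-18 binds IL-18Rα (Il18r1) and recruits the accessory chain IL-18Rβ (Il18rap), whose intracellular domains gather the adaptor MyD88 and IRAK kinases and activate NF-κB. IL-12 and IL-18 act in synergy and are the classical trigger of interferon-gamma secretion by NK cells. Interferon-gamma in turn signals through IFNGR1, which binds the ligand, and IFNGR2, by way of JAK1 and JAK2.

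The microRNAs removed in the knockout pair with their targets through the seed, bases 2 to 8 of the mature strand. Mature sequences from RefSeq (GRCm38.p6) are shown for the microRNAs in the genotype's name and, for comparison, for miR-15b-5p, which is not in it. The seed is in capitals. The first is encoded on the minus strand at chr14:61632075-61632096. The second is encoded there at chr14:61631936-61631957, with an identical copy in the gene Mir16-2 on another chromosome. The third comes from that second cluster.
miR-15a-5p: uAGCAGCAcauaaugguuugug
miR-16-5p: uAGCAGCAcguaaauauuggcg
miR-15b-5p: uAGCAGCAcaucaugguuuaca
The seed is the same in all 3, and both microRNAs of the second cluster are outside the genotype's name. It was shared by 10 of the 1679 mature microRNA names in the table. The Mir15a probe set read 4.37, 3.53 and 3.43 in knockout replicates 1, 2 and 3 and 7.14, 6.02 and 6.69 in the control replicates, with no overlap. Its log2 difference was -2.84 (SE 0.31, limma adjusted p = 0.0296), and the call ended in 7 of 16 alternatives: with a second quantile normalization, with a sex-linked covariate, over every probe set of the table, and without knockout replicate 2 or 3 or control replicate 1 or 3. The difference itself lay between -2.58 and -3.14 in all 16. Mir16-1 lay below background and differed by -0.63 (SE 0.19) without overlap. Myb, the target named in the study's title, differed by 0.22 (SE 0.13), with every knockout array above every control array.

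All 14 NK cell markers checked, Ncr1 and Klrb1c among them, lay above background, taken as the level of 4.13 under which 95% of olfactory receptor genes lay. Among markers of other cells, the T cell genes Cd4, Cd8a and Cd8b1 lay below that level, while Cd3d, Cd3e and Cd3g were between 5.63 and 7.79. Of 11 T cell markers 5 lay above it, with a mean over the list of 5.09 to 5.34 in knockout and 5.14 to 5.18 in control arrays. Of the 11, Cd28 (0.43, SE 0.14) and Camk4 (0.37, SE 0.16, below background) were higher in knockout without overlap, where 3.68% of all genes were. Of 10 neutrophil markers 6 lay above it, and the mean over the list was 4.17 to 4.76 in knockout and 4.25 to 4.46 in control arrays, highest in knockout replicate 1. The neutrophil gene S100a8 differed by 0.77 (SE 0.32) with overlap, while of the 10 neutrophil markers 6 differences were positive and 4 negative (median 0.05). Itga1, a marker of type 1 innate lymphoid cells, differed by 0.51 (SE 0.17). It was the 1 gene of their 8 measured markers higher without overlap, against the same 3.68% of all genes. Over the 8 measured markers of these cells 4 differences were positive and 4 negative, with a median of -0.03. Above background lay 3 of 9 B cell, 4 of 13 myeloid, 2 of 4 erythroid and 3 of 6 platelet markers. Lower in knockout without overlap were 1 B cell, 2 myeloid and 1 platelet marker, where 4.65% of all genes were. No marker passed the adjusted threshold. Their part in the values below was not tested. Xist and the Y-linked genes Eif2s3y, Kdm5d and Uty were all measured in both genotypes. Control replicate 2 had the lowest Xist (3.89) and control replicate 1 the lowest Eif2s3y (2.33), so the arrays of a genotype were not alike in sex-linked transcripts. Both genes lay above background in every knockout array (Xist 7.56 to 8.84, Eif2s3y 6.18 to 7.88) and in control replicate 3 (8.86 and 6.29). Whether these arrays hold cells of both sexes was not tested. With the contrast of Xist to the Y-linked genes as a covariate, 0 of the 9 genes passed.

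Il12rb1 encodes the chain shared by the receptors for IL-12 and IL-23. Its log2 level was 5.87, 6.12 and 5.51 in knockout replicates 1 to 3 and 5.53, 5.76 and 5.60 in the control replicates. The highest 2 values were both from knockout arrays, but the lowest of all 6 was also a knockout array, so that the genotypes overlapped. The mean was 5.83 ± 0.30 (SD, n = 3) in knockout and 5.63 ± 0.12 (SD, n = 3) in control arrays. The log2 difference was 0.21 (SE 0.17, 95% interval -0.18 to 0.60), a ratio of 1.15. It lay between 0.06, without knockout replicate 2, and 0.37, without knockout replicate 3, when single arrays were left out.

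The second chain of the IL-12 receptor, Il12rb2, carries the STAT4 docking site and sets IL-12 responsiveness in T cells. Knockout arrays read 8.76, 8.37 and 8.18, and control arrays 8.81, 8.70 and 8.54. Knockout replicates 2 and 3 lay below every control array, while knockout replicate 1 lay within 0.05 of the highest control value. Mean levels were 8.43 ± 0.29 in knockout and 8.68 ± 0.14 in control arrays (SD, n = 3 each), a log2 difference of -0.25 (SE 0.17, 95% interval -0.64 to 0.14). Without knockout replicate 1 the difference was -0.41 with an unadjusted limma p of 0.0339 (adjusted p = 0.999). Il12rb1 and Il12rb2 thus had differences of opposite sign, and both 95% intervals included 0.

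Tyk2, the JAK family kinase bound to IL-12Rβ1 and to the type I interferon receptor, was the most variable of the 9. Its knockout arrays read 7.32, 7.39 and 6.67 and its control arrays 7.00, 7.56 and 6.62. Replicate 3 was the lowest array in both genotypes and replicate 2 the highest in both. The SD pooled over genotypes was 0.44, and 93.9% of the 10892 genes above background had a smaller one. The difference of 0.07 (SE 0.26, 95% interval -0.52 to 0.66) changed sign when knockout replicate 1, knockout replicate 2 or control replicate 3 was left out (-0.03, -0.06 and -0.15).

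Stat4 encodes the transcription factor that IL-12 activates. The knockout values were 9.86, 9.60 and 9.35, and the control values 9.35, 9.51 and 9.36. Knockout replicates 1 and 2 exceeded every control array, and knockout replicate 3 lay among the control arrays. The mean was 9.61 ± 0.26 in knockout and 9.41 ± 0.09 in control arrays (SD, n = 3 each), and the log2 difference was 0.20 (SE 0.16, 95% interval -0.16 to 0.56). Leaving out knockout replicate 1 lowered it to 0.07 and leaving out knockout replicate 3 raised it to 0.32.

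**Figure D1:**
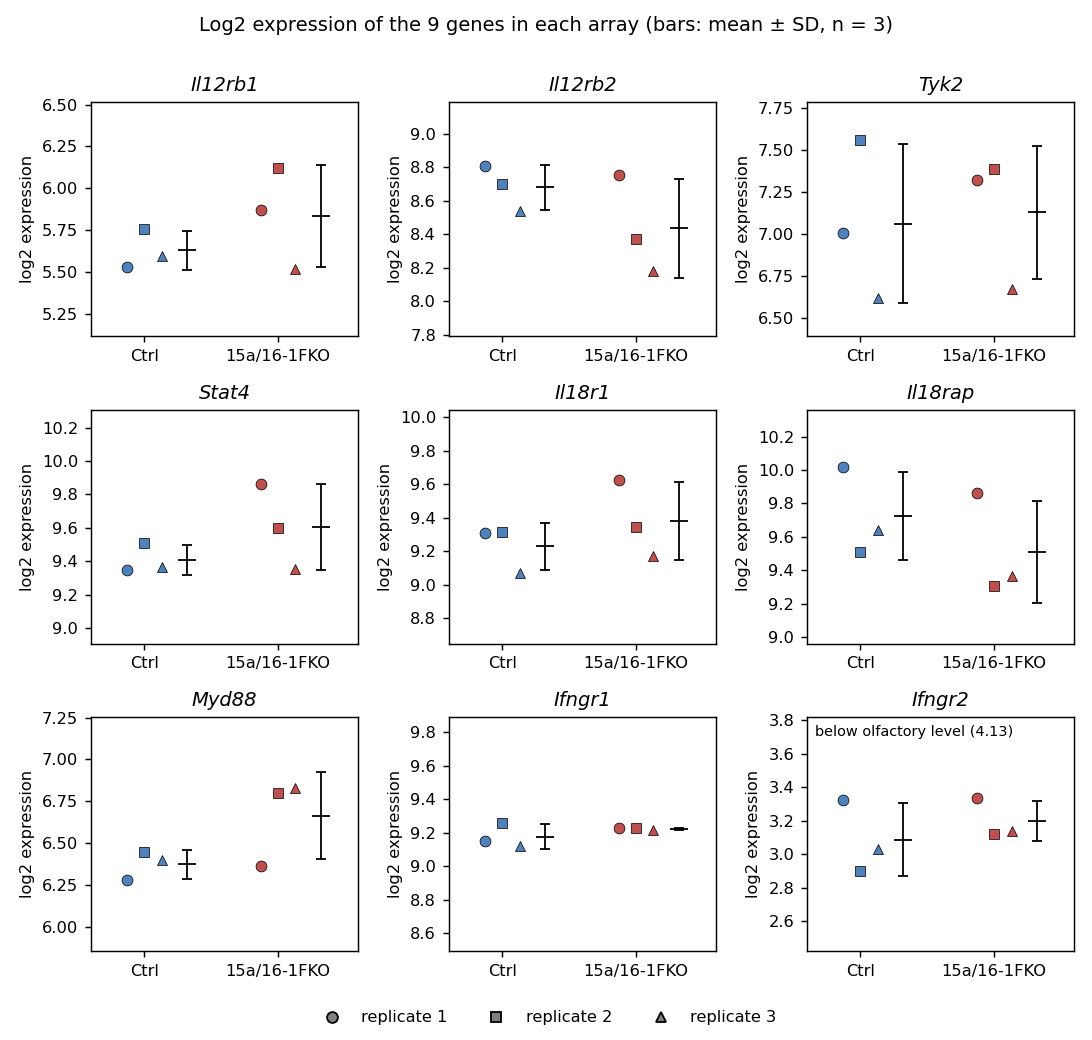
Log2 expression (y axis, a span of 1.4 in each panel) of the 9 genes in the 3 control and 3 knockout arrays (x axis), with symbols for the replicate number and bars for mean ± SD. Control and knockout points overlap in every panel; Tyk2 spreads most and Ifngr1 least.

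The IL-18 receptor chains are encoded side by side, with no measured gene between them. Il18r1, the chain that binds IL-18, read 9.63, 9.34 and 9.17 in knockout and 9.31, 9.31 and 9.07 in control arrays. Knockout replicates 1 and 2 lay above all control arrays and replicate 3 below 2 of them. Il18rap, the accessory chain, read 9.86, 9.30 and 9.37 in knockout and 10.02, 9.51 and 9.64 in control arrays. Here knockout replicates 2 and 3 lay below all control arrays, and replicate 1 was second only to control replicate 1. The log2 difference was 0.15 (SE 0.16, 95% interval -0.21 to 0.51) for Il18r1 and -0.21 (SE 0.20, 95% interval -0.65 to 0.22) for Il18rap. These neighbouring genes had estimates of opposite sign, and both intervals included 0. With single arrays left out, Il18r1 lay between 0.03 (without knockout replicate 1) and 0.26 (without knockout replicate 3) and Il18rap between -0.39 (without knockout replicate 1) and -0.07 (without control replicate 1). In gene order, on the outer sides of the pair, Il1rl2 (the IL-36 receptor) and Slc9a4 (a sodium/proton exchanger) lay below background, with differences of 0.31 (SE 0.22) and -0.26 (SE 0.17).

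Myd88, the adaptor that links the IL-18 receptor, the IL-1 receptor and most toll-like receptors to IRAK kinases, had the largest difference of the 9. Its level was 6.36, 6.80 and 6.83 in knockout and 6.28, 6.44 and 6.40 in control arrays. Knockout replicates 2 and 3 stood above every control array, and knockout replicate 1 lay inside the control range. Means were 6.66 ± 0.26 in knockout and 6.37 ± 0.09 in control arrays (SD, n = 3 each). This is a log2 difference of 0.29 (SE 0.16, 95% interval -0.07 to 0.65) and a ratio of 1.22, with an unadjusted limma p of 0.104 (adjusted p = 0.999). Without knockout replicate 1 the difference was 0.44, with an unadjusted p of 0.0165 and an adjusted p of 0.999 by limma.

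Ifngr1, the ligand-binding chain of the interferon-gamma receptor, was the most even of the 9 across arrays. Knockout arrays read 9.23, 9.23 and 9.22 and control arrays 9.15, 9.26 and 9.12, with every knockout value inside the control range. The pooled SD was 0.05, and 0.891% of the genes above background had a smaller one. The difference was 0.05 (SE 0.13, 95% interval -0.24 to 0.33), and limma's interval, which draws each gene's variance toward a common value, is wider than the spread of Ifngr1 alone would give. On the fold scale it runs from 0.85 to 1.26.

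The signal-transducing chain Ifngr2 read 3.34, 3.12 and 3.14 in knockout and 3.33, 2.90 and 3.03 in control arrays. All 6 values lay below the olfactory receptor level of 4.13, so that the array gave no level of Ifngr2 above background in either genotype. A dim signal from 1 probe set does not show that the transcript is absent, and RMA compresses differences at this level. The log2 difference was 0.11 (SE 0.16, 95% interval -0.24 to 0.46). Ifnar1, the gene before it in order, for a type I interferon receptor chain, lay above background at 6.99 to 7.55 over the arrays and differed by -0.09 (SE 0.18). Its other neighbour, Tmem50b, differed by 0.36 (SE 0.21). The other measured neighbours of the 9 genes in gene order differed by between -0.05 (Cdc37, beside Tyk2) and 0.47 (Olig3, beside Ifngr1, SE 0.29, below background), and 0 of the neighbours passed or separated the genotypes.

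**Figure D2:**
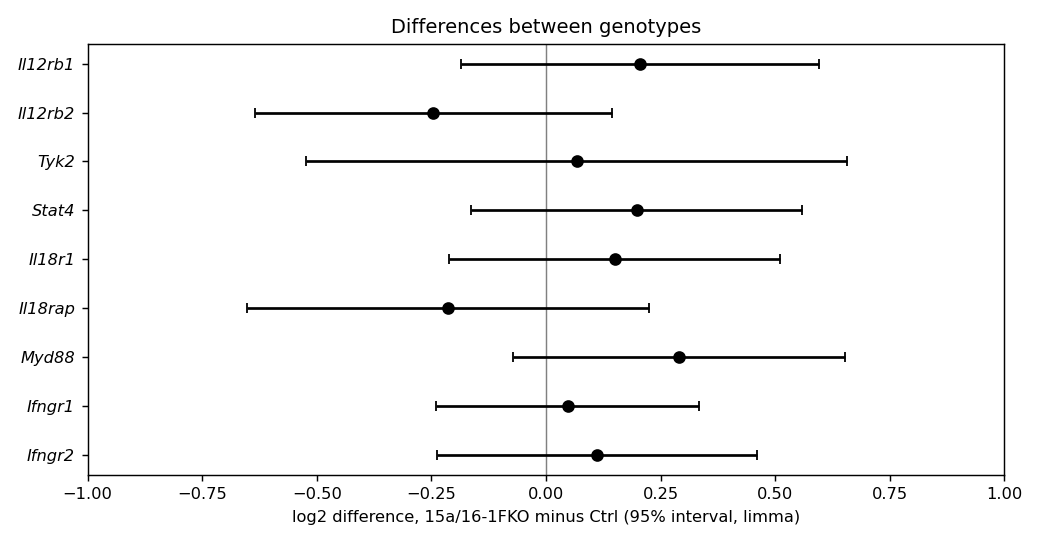
Log2 difference between genotypes (x axis, 15a/16-1FKO minus Ctrl) for the 9 genes (y axis), with 95% intervals from limma over 3 against 3 arrays. Every interval includes 0, with Myd88 the highest at 0.29 and Il12rb2 the lowest at -0.25.

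Across the 9 genes 7 differences were positive and 2 negative, and their median was 0.11, or 0.04 without knockout replicate 1 and 0.21 without knockout replicate 3. Over all 19938 genes the median was -0.01 and 47.9% were positive, and over the genes above background 51.0% were. In the limma fit 4 of 19938 genes (0.0201%) passed an adjusted p of 0.05, 3 higher (0.015%) and 1 lower (0.00502%) in knockout, and 0 of the 9 did. At an unadjusted p under 0.05 the share of all genes was 3.47% (1.55% higher and 1.91% lower), against 0 of the 9. Genotypes were fully separated in 8.33% of all genes (3.68% higher and 4.65% lower in knockout) and in 0 of the 9. Exact two-sided permutation tests gave p between 0.3 and 0.9 for the 9 genes, where 0.1 is the smallest p that 3 against 3 arrays allow. The intervals bound what was measurable. The highest upper bound was a 1.58-fold higher level in knockout (Tyk2), and the largest bound in the other direction was a 1.57-fold higher level in control (Il18rap). The median half-width of the 9 intervals was 0.36 on the log2 scale. These intervals do not show that the levels were equal.

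The 9 genes did not share 1 order of the arrays. Knockout replicate 1 was the highest array for 3 of the 9 genes (Il18r1, Stat4 and Ifngr2), and control replicate 3 the lowest for 3 (Il18r1, Tyk2 and Ifngr1). Over the 6 arrays Il18r1 and Stat4 rose and fell together (r = 0.90), as did Il12rb2 and Il18rap (r = 0.83). Myd88 ran opposite to Il12rb2 (r = -0.93) and to Il18rap (r = -0.89). These values, the 4 largest in size of 36 pairs over 6 arrays, are a description; the points share arrays, normalization and genotype.

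**Figure D3:**
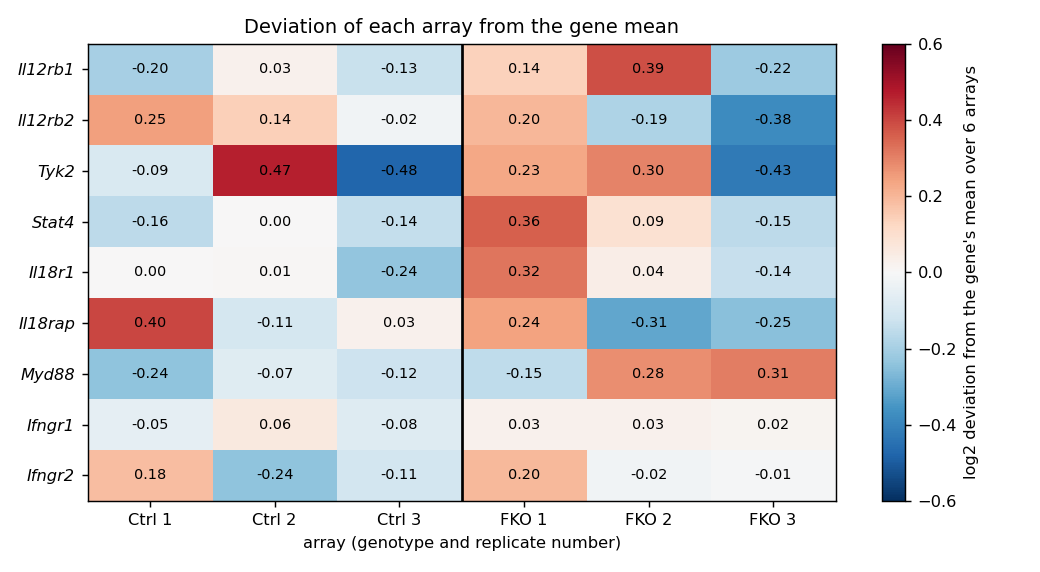
Log2 deviation of each array from the gene's mean over 6 arrays (colour and printed value), with genes as rows and arrays as columns, control on the left of the line and knockout (FKO) on the right. Il12rb2 and Il18rap are low and Myd88 is high in knockout replicates 2 and 3, while knockout replicate 1 stands at 0.20, 0.24 and -0.15 for these genes.

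Many genes followed a single gene's profile equally well. Among 10892 genes above background, between 8 (Myd88) and 65 (Il18r1 and Tyk2) had a correlation over 0.95 with one of the 9 across the 6 arrays. The closest was Anp32e for Stat4 (r = 0.999), followed by Snx6 (r = 0.99). Gmeb1 and Ppp1r18 were closest to Il12rb1, Filip1l and Memo1 to Il12rb2, Hrh2 and Myo1c to Il18r1, and Mtmr12 and Zc3hav1l to Il18rap. Zfp414 and Phf12 were closest to Tyk2, Galnt11 and Rpn1 to Ifngr1, Lncpint and Tm6sf1 to Ifngr2, and Qtrt2 and Atr to Myd88, all with r of 0.97 or more. No p is given, since the best of so many genes over 6 arrays is high by selection.

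Start-site windows of the 9 genes were searched for the motifs bound by STAT factors and by interferon-activated complexes. No motif for NF-κB, which IL-18 activates, was searched. RefSeq (GRCm38.p6) windows of 250 bases before to 50 after a start were present for 8 of the 9 genes. The STAT motif called GAS, TTCNNNGAA, which reads the same on both strands, occurred in 3 of the 8 genes and in 9.55% of all 27025 genes with a window. The interferon response motif searched, GAAA, any 2 bases and GAAA on either strand, occurred in 2 of the 8 and in 3.99% of all genes. The matches are printed with 10 bases on each side, 5′ to 3′ on the gene's strand and with the motif in capitals.
Il18r1, GAS, chr1:40465777-40465805 (+): tcggggttagTTCTGGGAActgtggagct
Il18r1, GAS, chr1:40465844-40465872 (+): agtacaggtcTTCCCAGAActgaaagctt
Il12rb2, GAS, chr6:67376293-67376321 (-): gttcccttttTTCTCAGAAccgcactaag
Myd88, GAS, chr9:119340046-119340074 (-): agggcggagcTTCTCGGAAagcgaaagaa
Myd88, interferon motif, chr9:119340039-119340068 (-): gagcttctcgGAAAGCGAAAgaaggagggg
Stat4, interferon motif, chr1:52008133-52008162 (+): aatgtcttcaGAAAGTGAAAtttagaacgg
The Il18r1 matches begin 219 and 152 bases before an annotated start, the Il12rb2 match 123 and the Stat4 match 97. In Myd88 the motifs begin 46 and 40 bases before the start and share 3 bases. A match of letters is not a binding site, and the expression values do not test one.

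The rest of the IL-12 receptor family and its kinases did not pass the test. Of 11 measured genes, 3 differences were positive and 8 negative, 0 passed in either direction, and the median was -0.04, or 0.05 without control replicate 1. Jak1 differed by 0.09 (SE 0.13) and Jak2, the kinase on IL-12Rβ2 and IFNGR2, by 0.14 (SE 0.14). The ligand subunits Il12a, Il12b and Il23a and the receptor chain Il23r, a neighbour of Il12rb2 in gene order, had mean levels below background. The smallest unadjusted p in the list belonged to Ebi3, which pairs with p28 to form IL-27, to Jak2 and to Il12b; Ebi3, below background, differed by 0.19 (SE 0.18) and Il12b by -0.16 (SE 0.17). Across the STAT and JAK families, which include Stat4 and Tyk2, 7 of 9 differences were positive with a median of 0.07 and 0 passed. Stat4 had the largest difference of that list.

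Downstream of and beside MyD88, differences were positive in 17 of 25 measured genes and negative in 8, and 0 passed; their median was 0.05. Sigirr, an inhibitory receptor of the IL-1 and IL-18 receptor family, read 6.57, 6.77 and 6.66 in knockout and 6.16, 6.53 and 6.29 in control arrays without overlap. Its difference was 0.34 (SE 0.15, 95% interval 0.01 to 0.67, limma adjusted p = 0.999). Traf6, the ubiquitin ligase that IRAK kinases engage, differed the other way, by -0.32 (SE 0.20), with overlapping arrays. The decoy receptor Il1r2 differed by 0.30 (SE 0.17) at levels below background, and the accessory chain Il1rap by 0.24 (SE 0.20). Il18 itself lay below background, with a difference of 0.12 (SE 0.30). Besides Sigirr, the arrays did not overlap for Map3k7 (0.09, SE 0.13), which encodes the kinase TAK1, and for Irak3 (-0.21, SE 0.14), which lay below background. These are 3 of 25 genes, where 8.33% of all genes did not overlap.

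Around the interferon-gamma receptor 10 further genes were measured, and 0 passed. Differences were positive in 3 and negative in 7, and their median was -0.10, or -0.03 without knockout replicate 3. Ifng read 7.84, 7.87 and 7.72 in knockout and 8.10, 8.34 and 7.89 in control arrays, without overlap (difference -0.30, SE 0.15). Socs3, a feedback inhibitor of cytokine receptors, differed by -0.52 (SE 0.18) without overlap. Its second probe set differed by 0.34 (SE 0.20), in the opposite direction. With Ifng, 2 of the 10 genes were lower without overlap, where 4.65% of all genes were. The phosphatase gene Ptpn2, which dampens JAK and STAT signalling, differed by 0.24 (SE 0.16) on its brighter probe set and by 0.74 (SE 0.22) on the other. Socs1, the inhibitor of JAK kinases induced by interferon-gamma, differed by -0.13 (SE 0.16).

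Among 21 measured interferon-gamma targets, 0 passed; 6 differences were positive and 15 negative, around a median of -0.09. The transcription factors Irf8 and Irf1 differed by -0.36 (SE 0.19) and -0.28 (SE 0.17) and the adhesion molecule Icam1 by -0.29 (SE 0.16). Irf1, lower in knockout, was the 1 gene of the 21 whose arrays did not overlap; the share of all genes lower in this way was 4.65%. Its second probe set differed by -0.20 (SE 0.15). Among 19 genes induced by IL-12 and IL-18, a list that also holds Ifng and Ifngr2, 0 passed; 7 differences were positive and 12 negative, around a median of -0.07. Of these, granzyme B (Gzmb) differed by -0.50 (SE 0.17). The stress-response gene Gadd45g, which amplifies IL-12 and IL-18 signals to p38, differed by -0.72 (SE 0.25). Its mean level lay below background, with control replicate 2 above it at 4.23. Gzmb, a cytotoxic granule protease, read 8.58, 8.46 and 8.15 in knockout and 8.81, 9.13 and 8.75 in control arrays, without overlap. Il2ra, the IL-2 receptor alpha chain, was higher in every knockout array (3.49, 3.88 and 3.42) than in the control arrays (3.39, 3.35 and 3.35), at levels below background. With Ifng, 3 of the 19 genes did not overlap, 2 lower and 1 higher, where 8.33% of all genes did not. The arrays of Gadd45g overlapped.

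Differences of other cytokine receptor chains are given for comparison, in a list of 6 with 5 above background and a list of 8 with 6 above it. All 6 measured chains of the IL-15, IL-2, IL-7, IL-21 and IL-4 receptors were positive in their difference, where 47.9% of all genes were. They ranged from 0.06 to 0.35 around a median of 0.26, and 0 passed. The median was 0.17 without knockout replicate 2. They included Il4ra at 0.29 (SE 0.18), Il7r at 0.33 (SE 0.22) and Il2ra at 0.23 (SE 0.16, below background). The 8 class II receptor chains, relatives of IFNGR1 and IFNGR2, ranged from -0.22 (Ifnlr1, SE 0.16, below background) to 0.36 (Il10rb, SE 0.21), 3 positive and 5 negative, and 0 passed; their median was -0.06, or -0.18 without control replicate 3. Ifnar2, a type I interferon receptor chain, was the 1 gene of these 8 without overlap, higher in knockout (0.13, SE 0.13), where 3.68% of all genes were. Il22ra1 differed by -0.21 (SE 0.17) on its brighter probe set and by -0.03 (SE 0.14) on the other. The differences between these lists were not tested.

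**Figure D4:**
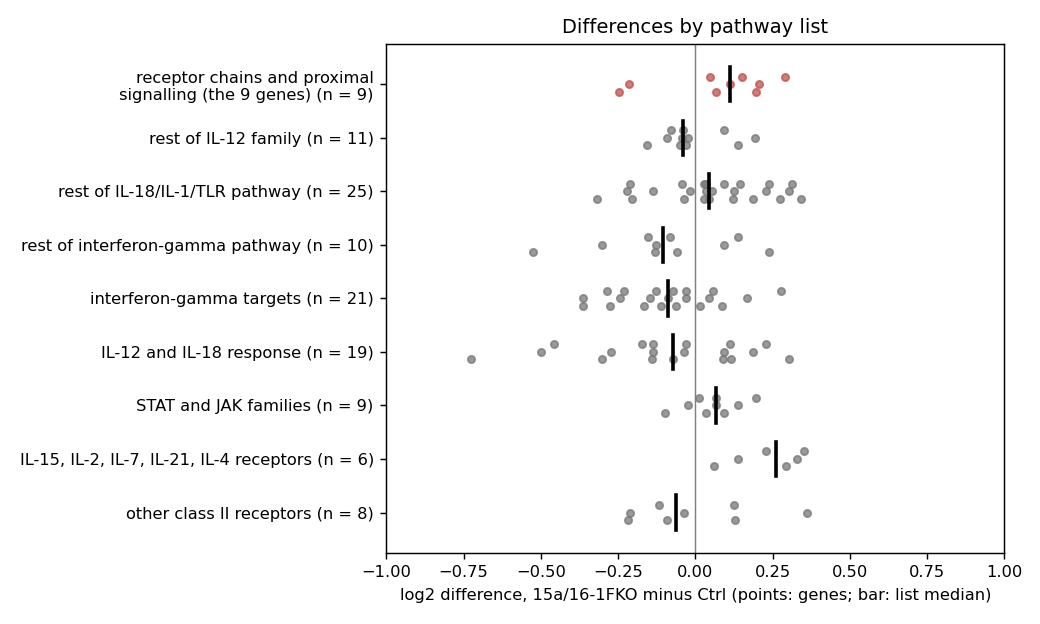
Log2 difference between genotypes (x axis, 15a/16-1FKO minus Ctrl) of every measured gene (points) in the 9 receptor and signalling genes and 8 related lists (y axis, n measured), with the list median as a bar. Medians lie between -0.10 (rest of the interferon-gamma pathway) and 0.26 (IL-15, IL-2, IL-7, IL-21 and IL-4 receptors), and 0 of the plotted genes passed the adjusted threshold; some genes are in more than one list.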

How the data were processed

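The values are log2 expression as the authors deposited them, for 35556 probe sets on 6 arrays. RMA and Partek 6.6 are named per the submitters' processing notes, without the step of each, and the sources used here name no genome build. RMA corrects background, quantile-normalizes and summarises probes. Names came from GEO's platform annotation, in which 21789 probe sets had 1 symbol, 1621 had several (not named) and 12146 were unlisted. A check by Entrez identifier against RefSeq's GRCm38.p6 genes changed 0 symbols. Each gene was represented by its probe set with the highest mean, giving 19938 genes. The background level is the 95th percentile of 1027 olfactory receptor genes.

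Differences are knockout minus control, from lmFit and eBayes (limma 3.58.1, R 4.3.3; a two-sided test with genotype as the only term), with Benjamini-Hochberg adjustment over 19938 genes and a threshold of 0.05. The fit was tested on simulated data, with added differences larger than any of the 9 genes showed, so differences of their size were not covered. Arrays carry no read depth, and their number (3 against 3) limits the precision. The 9 genes and the lists were chosen with earlier results of these data known. Genes named are the 9, the 3 of each pathway list with the smallest p, a short list of pathway genes, gene-order neighbours and the 2 closest profiles; non-overlapping list genes beyond these were named after their values were seen. Of the listed genes, some (Irak4, Jak3 and others) were not analysed here. Alternatives covered normalization, dim genes, the replicate number as a block, the variance prior, array weights, sex-linked transcripts, probe set choice and each array left out. Matches of microRNA seeds in transcripts were not analysed here.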

Additional observations from a re-analysis of the deposited data

How the results depend on the processing

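In 16 alternatives limma called 0 of the 9 genes, with Ifngr2 not tested where genes below the median level were left out. At an unadjusted p under 0.05 the count was 0 in the fit with all arrays and 2 (Il12rb2 and Myd88) without knockout replicate 1. Over all genes 4 were called, 2 with the sex-linked covariate, between 2 and 3 with each array left out in turn, and 0 when all 35556 probe sets were tested (1214 at an unadjusted p under 0.05). Among 35 named genes fitted with single arrays left out, the differences that changed sign were Tyk2 (-0.15 to 0.32), Il18 (-0.11 to 0.51), Ebi3 (-0.0094 to 0.34) and Socs1 (-0.25 to 0.0025); the cause was not tested. Gene-order neighbours, Mir16-1 and the genes named only for their lack of overlap were not refitted. The median of the 9 genes stayed between 0.04 and 0.21. The medians of 4 related lists changed sign in 1 or 2 alternatives each. Replicate numbers appear in both genotypes, but the labels do not say that the numbers pair arrays. The deviations of same-numbered arrays correlated at only 0.05, 0.15 and 0.14, yet in these deviations each array correlated best with its own number. The expression values themselves gave the same for every array but knockout replicate 1. That array was closer to control replicate 2 (r = 0.9855) than to control replicate 1 (r = 0.9840). With the replicate block 3 genes and 0 of the 9 were called, and the SE of Tyk2 was 0.16 in place of 0.26. Signal near background limits Ifngr2.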
